A study of Rattus norvegicus with 5 samples.

Results

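Basement membrane and matrix transcripts were followed in Müller cells isolated from rat retina, in 10 genes of the 4736 that the array's annotation names by a single symbol. These genes had 25 of its 8740 non-control probe sets. The genes were Fn1, Col1a1, Col3a1 and Pdgfrb, which are mainly vascular and stromal, the laminin gene Lamb2, and Sparc, Sparcl1, Tnc, Bcan and Ncan, which glia express. The probe sets were chosen by gene symbol alone. The diabetic group was 2 arrays of Müller cells pooled from the retinas of 12 male Sprague-Dawley rats in which streptozotocin, which destroys the insulin-producing cells, had induced diabetes 6 months earlier, and which were kept on low-dose insulin. The second diabetic array is labelled a technical replicate, so these arrays were averaged into 1 pool. The normal group was 3 pools from healthy male rats of the same strain, each of 12 rats and on 1 array, with replicates 2 and 3 labelled biological. The rats' ages, the isolation method and the purity of the cells were not stated in the labels.

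Basement membranes are sheets of laminin, type IV collagen, nidogen and perlecan, on which retinal capillaries lie and onto which the end-feet of Müller cells attach at the inner limiting membrane. Thickening of the capillary basement membrane is a known lesion of diabetic retinopathy. Fibrillar collagens and fibronectin come mostly from vascular and stromal cells, whereas the neural retina has a matrix of hyaluronan, tenascins and the chondroitin sulphate proteoglycans called lecticans.

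None of the 10 genes passed the test between diabetic and normal cells. Of the 25 probe sets, 20 exceeded the filter on low signal, at least 1 for each gene, and 0 of the 20 passed limma's test across 6118 probe sets at an adjusted p of 0.05 (background 0% of all tested). At an unadjusted p under 0.05 the members' count was also 0, against 1.6% of all tested probe sets (1.19% above and 0.409% below normal). With the 5 arrays taken as separate samples it was 0 as well, against 0.212% of all tested probe sets at an adjusted p of 0.05 in limma. Of the 20, 9 lay above and 11 below normal, with a median log2 difference of -0.05, against -0.01 over all tested probe sets. The widest differences were those of Tnc above normal, at 0.75, and of Bcan and Pdgfrb below it, at -0.90 and -0.87, and for each of them single arrays or the floor set much of the size. Signals are given below in normalised units, after the arrays were brought to one distribution, and values under the floor of 20 were raised to it before taking log2. In pooled cells, fewer cells of a type and less RNA per cell cannot be told apart.

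The arrays themselves limited what could be seen. The deposited signals had medians of 27.9 to 91.3 per array. Actin's 3' probe set exceeded its 5' one, a gap that widens as RNA degrades, by a ratio of 1.76 and 2.55 on diabetic arrays 1 and 2, against 2.61, 1.52 and 1.46 on normal arrays 1, 2 and 3. The same ratio for GAPDH was 1.11 and 1.35 on diabetic arrays 1 and 2, against 1.16, 1.24 and 1.03 on normal arrays 1, 2 and 3. GAPDH thus ordered the arrays otherwise, with normal array 1 below normal array 2. Diabetic array 2 and normal array 3 shared a day and a chip lot, while the record of diabetic array 1 gave neither. The difference between the diabetic arrays exceeded the diabetic-normal difference for 13 of the 20 probe sets, and the range of the normal pools exceeded it for 18. The exceptions to this count of 18 were Pdgfrb and rc_AA892248_at of Sparc, on which the diabetic arrays differed from each other by 1.52 and 0.90 on the log2 scale. Normal array 1 was the highest normal array for 15 of the 20, a position it held for 39.1% of all tested probe sets. With 1 pool against 3, an exact permutation test cannot give a p below 0.25.

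**Figure D1:**
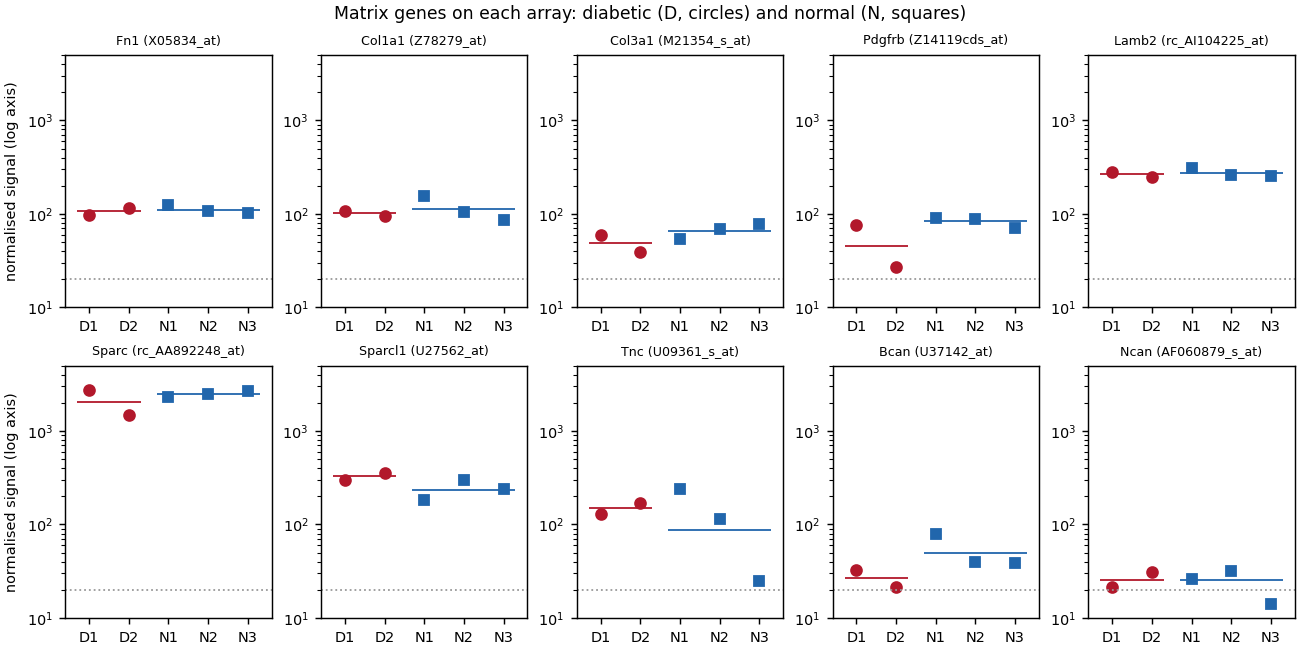
Normalised signal (log axis) of the brightest probe set of each gene on the diabetic arrays (D1, D2, circles) and normal arrays (N1 to N3, squares), with lines at the group means of log2 values and a dotted line at the floor of 20. Sparcl1 lay above and Bcan below all normal arrays on both diabetic arrays, whereas Pdgfrb was low on diabetic array 2 alone and Tnc ran from 24.6 to 239 among normal arrays.

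Fn1 encodes fibronectin, an adhesive glycoprotein that joins integrins to collagen. Its brightest probe set, X05834_at, had 98.0 and 116 units in diabetic cells, against 125, 108 and 101 units in normal cells. Diabetic array 1 was just below the normal range and diabetic array 2 inside it. The log2 difference was -0.05 (SE 0.39, 95% interval -1.03 to 0.93). The values of U82612cds_at also overlapped, with 76.9 and 82.8 units in diabetic cells, against 80.8, 75.9 and 70.1 units in normal cells, a log2 difference of 0.08 (SE 0.43). The sister probe set U82612cds_g_at had 39.5 and 8.56 units on the diabetic arrays, against 46.4, 36.2 and 28.4 units on the normal arrays. Its log2 difference of -0.37 (SE 0.52) rested on diabetic array 2, which was below the floor, and was 0.13 without that array. X05831cds_at differed by 0.03 (SE 0.55), and M28259cds_at lay below the floor on all 5 arrays, at 2.96 to 8.63 units.

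Col1a1 encodes the alpha-1 chain of type I collagen, the main collagen of fibrous tissue. All 4 of its probe sets were tested. Z78279_at, the brightest, had 107 and 95.6 units in diabetic cells, against 154, 105 and 86.3 units in normal cells, with a log2 difference of -0.14 (SE 0.48, 95% interval -1.34 to 1.05). Both diabetic values lay inside the normal range, whose top was set by normal array 1. The partner probe set Z78279_g_at had 122 and 79.3 units in diabetic cells, against 156, 106 and 89.4 units in normal cells, a log2 difference of -0.21 (SE 0.47). The probe set rc_AI231472_s_at differed by -0.21 (SE 0.47) and M27207mRNA_s_at by 0.15 (SE 0.49). Without normal array 1 the difference was 0.092 on Z78279_at and 0.018 on Z78279_g_at.

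Col3a1 encodes the chain of type III collagen, which accompanies type I in vessel walls. M21354_s_at had 60.1 and 39.4 units in diabetic cells, against 54.3, 69.1 and 77.4 units in normal cells. Diabetic array 2 was below every normal array and diabetic array 1 was within their range. The log2 difference was -0.44 (SE 0.48, 95% interval -1.64 to 0.75), and -0.14 without diabetic array 2. The dimmer X70369_s_at was not tested, with 6.96 and 14.9 units in diabetic cells, against 9.96, 43.9 and 24.9 units in normal cells.

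Pdgfrb encodes the receptor through which platelet-derived growth factor B recruits pericytes, the mural cells of capillaries. Its probe set had 76.9 and 26.8 units in diabetic cells, against 90.2, 88.9 and 71.5 units in normal cells. The normal pools lay close together and diabetic array 1 fell among them, so that only diabetic array 2 stood apart. The log2 difference was -0.87 (SE 0.45, 95% interval -1.99 to 0.25, limma's unadjusted p = 0.105 and adjusted p = 0.9999). It was -0.12 when diabetic array 2 was left out and -1.62 when diabetic array 1 was. Between the same-day arrays it was -1.41, and among the 3 arrays of low actin ratio (under 2) it was -0.057.

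Over the brightest probe sets of these 4 vascular genes the median log2 difference was -0.29. It was -0.13 when diabetic array 2 was left out and -0.48 when diabetic array 1 was. Markers of endothelial cells and pericytes were measured beside them. Of 28 such markers, 20 were on the array and 16 were tested, with 6 above and 10 below normal and a median log2 difference of -0.09. Their summed signal was 4508 and 5274 units in diabetic cells, against 6161, 4362 and 4978 units in normal cells, so it was highest on normal array 1, as Col1a1 was. Most of this sum came from Kdr, at 2019 to 2823 units, and Slc2a1, at 1012 to 1550 units. Kdr, the main receptor for vascular endothelial growth factor, differed by -0.06 (SE 0.27), the glucose transporter gene Slc2a1 by -0.09 (SE 0.31) and Pdgfra by -0.14 (SE 0.37). Pdgfra is also on the list of fibroblast and meningeal markers, so its value does not stand for vessels alone. Vwf, the endothelial clotting factor, and Des, the muscle filament desmin, stayed at or under 23.5 and 9.76 units on all arrays and were not tested. Other vascular markers, among the 16 tested, were brighter: Pecam1 had 44.0 to 95.6 units, Flt1 124 to 178 and Nos3 184 to 239. Fibroblast and meningeal markers had a median of -0.11 over 10 tested genes, 4 above and 6 below normal, with summed signals of 4926 and 5612 units in diabetic cells, against 4715, 4559 and 5689 units in normal cells. Igf2, at 2646 to 3482 units, supplied most of it. The part of vascular or stromal cells in the matrix values was not tested.

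**Figure D2:**
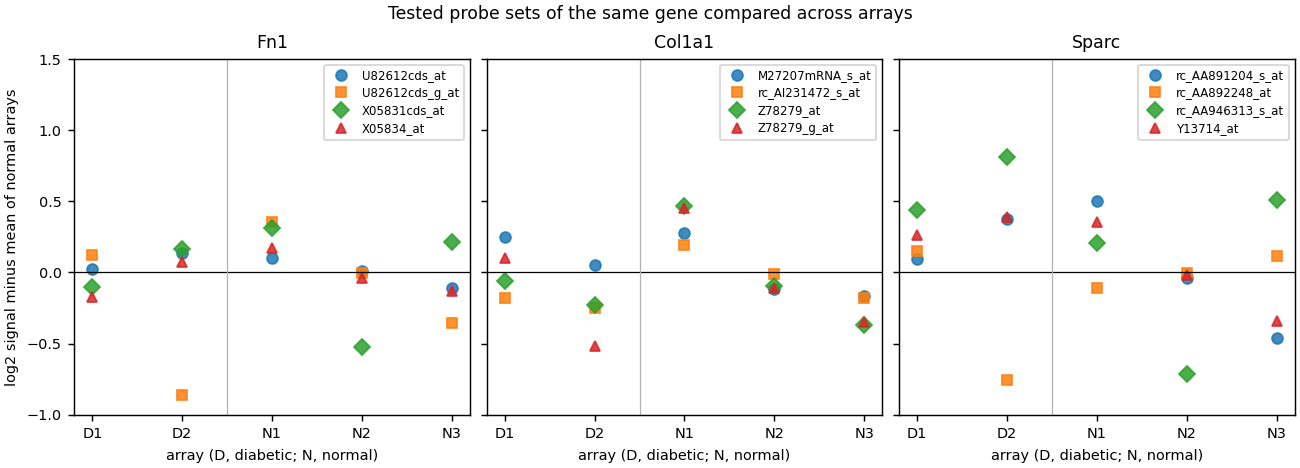
Log2 signal of each tested probe set of Fn1, Col1a1 and Sparc on every array, relative to the mean of the 3 normal arrays. The Col1a1 probe sets were all highest among normal arrays on normal array 1, while 1 Fn1 probe set and 1 Sparc probe set were low on diabetic array 2 and the others of these genes were not.

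Lamb2 encodes the laminin beta-2 chain, a component of capillary basement membranes and of the inner limiting membrane. Its probe set rc_AI104225_at had 282 and 247 units in diabetic cells, against 306, 258 and 253 units in normal cells. The other, rc_AA900848_at, had 189 and 189 units in diabetic cells, against 241, 222 and 170 units in normal cells. On the first, diabetic array 2 lay slightly below the normal range, and on the other both diabetic arrays lay inside it. The log2 differences were -0.04 (SE 0.30, 95% interval -0.78 to 0.70) and -0.15 (SE 0.35, 95% interval -1.02 to 0.73). Both intervals include 0 and are wide.

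Sparc and Sparcl1 encode related secreted glycoproteins. SPARC binds collagens and modulates how they are laid down, and SPARC-like 1, also called hevin, is secreted by astroglia and promotes synapse formation. The promoters of these genes, and of Tnc and Bcan, are shown beside their values, none of which passed the test. No link of promoter to signal was tested. The promoters are RefSeq sequences of rat build GRCr8, from 250 bases before to 50 after the annotated start. Of the 10 genes 5 had an entry, among them Ncan, whose promoter is not shown. Capitals mark matches on either strand, with overlaps counted. The letters searched were GGAGG, the GGA box known from Sparc promoters, and GGGCGG, the GC box. Also searched were TATAAA and its variant TATATA, and the CCAAT box. Sparc is at chr10:40038767-40039066 and Sparcl1 at chr14:5937234-5937533, on the minus and plus strands.
Sparc promoter: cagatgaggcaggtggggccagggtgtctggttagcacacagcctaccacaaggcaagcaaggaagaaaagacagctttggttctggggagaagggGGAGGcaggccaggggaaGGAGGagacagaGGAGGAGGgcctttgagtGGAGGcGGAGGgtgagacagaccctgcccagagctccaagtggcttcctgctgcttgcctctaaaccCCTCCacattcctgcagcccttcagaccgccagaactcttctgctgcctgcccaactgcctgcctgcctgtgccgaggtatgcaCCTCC
Sparcl1 promoter: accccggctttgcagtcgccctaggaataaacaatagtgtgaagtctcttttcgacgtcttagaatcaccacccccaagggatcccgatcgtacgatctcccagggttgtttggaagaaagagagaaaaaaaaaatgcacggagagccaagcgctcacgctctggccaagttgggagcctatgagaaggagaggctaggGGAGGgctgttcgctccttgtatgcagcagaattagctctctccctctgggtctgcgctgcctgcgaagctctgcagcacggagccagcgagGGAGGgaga
The Sparc window held 8 GGAGG matches, a count reached by 1.39% of the 33469 promoters of this length in the table, and 71.1% of these held at least 1. The Sparcl1 window held 2, a count reached by 43.6%. Neither window held any of the other letters searched. Of all promoters, 14.2% held TATAAA and 6.15% held TATATA, while 33.1% held GGGCGG and 37.5% held the CCAAT box. These are letter matches only.

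Sparc was bright on all 4 of its probe sets, and they did not move alike. On rc_AA946313_s_at diabetic cells had 2087 and 2702 units, against 1775, 939 and 2185 units in normal cells, a log2 difference of 0.63 (SE 0.49). On Y13714_at they had 1817 and 1988 units, against 1935, 1499 and 1198 units in normal cells, a log2 difference of 0.33 (SE 0.33). On each, normal values spread by more than the groups differed and diabetic array 1 lay within the normal range. The third, rc_AA891204_s_at, had 875 and 1065 units in diabetic cells, against 1160, 797 and 594 units in normal cells, with a log2 difference of 0.24 (SE 0.40). The brightest, rc_AA892248_at, went the other way, with 2773 and 1482 units in diabetic cells, against 2315, 2490 and 2702 units in normal cells. Here diabetic array 1 was above all normal arrays and diabetic array 2 below all of them, so the log2 difference of -0.30 (SE 0.23) was an average of opposite readings, and it was 0.16 without diabetic array 2. The mean over the 4 probe sets was 0.22.

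Sparcl1 was the only gene of the 10 with a probe set on which both diabetic arrays lay above every normal array. It had 302 and 359 units in diabetic cells, against 183, 299 and 237 units in normal cells. Diabetic array 1 and normal array 2 were nearly equal, so the separation is narrow. The signal was 1.40 times normal, a log2 difference of 0.49 (SE 0.37, 95% interval -0.45 to 1.42, limma's unadjusted p = 0.245 and adjusted p = 0.9999). It was above 0 in every alternative run, at 0.19 among the 3 arrays of low actin ratio and 0.60 between the same-day arrays. Such a probe set among 20 makes 5%, against 9.53% of all tested probe sets with both diabetic arrays above every normal one.

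Tnc encodes tenascin-C, a glycoprotein of developing and injured tissue, and Bcan encodes brevican, a lectican of the adult nervous system. Tnc is at chr5:82476082-82476381 and Bcan at chr2:175765265-175765564, both on the minus strand, with capitals as above.
Tnc promoter: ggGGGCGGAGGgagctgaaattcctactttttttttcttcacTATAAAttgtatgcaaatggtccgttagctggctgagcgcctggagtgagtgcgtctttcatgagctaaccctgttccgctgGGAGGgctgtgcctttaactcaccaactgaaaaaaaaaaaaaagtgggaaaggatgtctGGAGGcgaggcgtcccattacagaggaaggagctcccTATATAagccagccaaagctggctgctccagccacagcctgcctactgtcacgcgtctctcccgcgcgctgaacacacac
Bcan promoter: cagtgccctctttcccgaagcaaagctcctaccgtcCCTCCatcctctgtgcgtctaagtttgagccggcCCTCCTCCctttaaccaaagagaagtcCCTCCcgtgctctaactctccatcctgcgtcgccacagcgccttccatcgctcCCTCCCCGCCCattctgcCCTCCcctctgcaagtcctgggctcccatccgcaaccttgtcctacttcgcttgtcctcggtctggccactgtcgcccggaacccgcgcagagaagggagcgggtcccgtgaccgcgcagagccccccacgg
The Tnc window held a TATATA match 30 bases before the start and a TATAAA match 208 bases before it. It also held 1 GGGCGG match and 3 GGAGG matches, the first of which overlaps the GGGCGG. The Bcan window held 6 GGAGG matches, more than in most promoters of the table, and 1 GGGCGG match directly after one of them, with no TATA-like match.

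Tnc on U09361_s_at had 130 and 169 units in diabetic cells, against 239, 116 and 24.6 units in normal cells. The normal pools differed by 3.28 on the log2 scale, the widest normal range of any of the 20 probe sets, and enclosed both diabetic arrays. The log2 difference of 0.75 carried an SE of 1.23 and a 95% interval of -2.31 to 3.82. It was -0.16 when normal array 3, the low one, was left out and 1.503 when normal array 1 was. The same-day arrays, which include normal array 3, differed by 2.78. The other probe sets of Tnc lay below the floor on all arrays, at 1.64 to 12.2 units.

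The summed signal of photoreceptor markers, which a retinal preparation can carry over, was also lowest on normal array 3. All 8 tested of 18 markers lay above normal, against 48.8% of all tested probe sets, with a median log2 difference of 0.82. Both diabetic arrays lay above every normal array for 5 of the 8, against 9.53% of all tested probe sets. In limma 1 of the 8 had an unadjusted p under 0.05, against 1.6% of all tested probe sets, and 0 passed after adjustment. The 8 markers summed to 12756 and 13582 units in diabetic cells, against 10085, 9624 and 4283 units in normal cells. Their part in the Tnc values was not tested. Among Müller cell markers the glutamine synthetase gene Glul had 8290 and 7984 units in diabetic cells, against 7532, 9373 and 11797 units in normal cells. The list's dimmest tested marker, the potassium channel gene Kcnj10, had 74.8 and 31.2 units in diabetic cells, against 57.7, 41.5 and 78.7 units in normal cells. The list's summed signal was 39380 and 40399 units in diabetic cells, against 33917, 39231 and 44528 units in normal cells, and its median log2 difference was -0.11 over 9 genes.

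Bcan had 32.4 and 21.6 units in diabetic cells, against 78.8, 39.3 and 38.5 units in normal cells. Both diabetic arrays lay below every normal array, which held for 1 of the 20 probe sets (5%), against 7.01% of all tested probe sets. The diabetic values lay near the floor of 20, so their ratio to normal is loosely fixed, and the fold was 0.538. The log2 difference was -0.90 (SE 0.61, 95% interval -2.43 to 0.64, limma's unadjusted p = 0.199). It was -0.33 with a floor of 40, -0.56 without normal array 1 and -0.28 among the 3 arrays of low actin ratio.

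Ncan encodes neurocan, a lectican of the developing nervous system. AF060879_s_at had 21.6 and 30.7 units in diabetic cells, against 26.1, 31.8 and 14.1 units in normal cells, with a log2 difference of 0.02 (SE 0.51). M97161_at was above the floor only on diabetic array 1, at 22.4 units, and was not tested. It had 11.2 units on diabetic array 2, against 12.8, 14.4 and 15.3 units on the normal arrays. Neurocan was therefore close to the limit of measurement in both groups. Astrocyte markers, measured because astrocytes also make these proteoglycans, had a median log2 difference of -0.14 over 4 tested genes. Of 7 listed, 5 were on the array by a single symbol. Gfap, a defining marker on both the astrocyte and the Müller cell list, was not among them. The values of both lists therefore leave Gfap out and do not show how it moved. Their summed signal was 2084 and 1959 units in diabetic cells, against 2319, 1573 and 1930 units in normal cells. Most of this sum came from S100b, at 1107 to 1896 units. Aqp4 is also on the list of Müller cell markers, so the list does not set astrocytes fully apart from Müller cells.

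**Figure D3:**
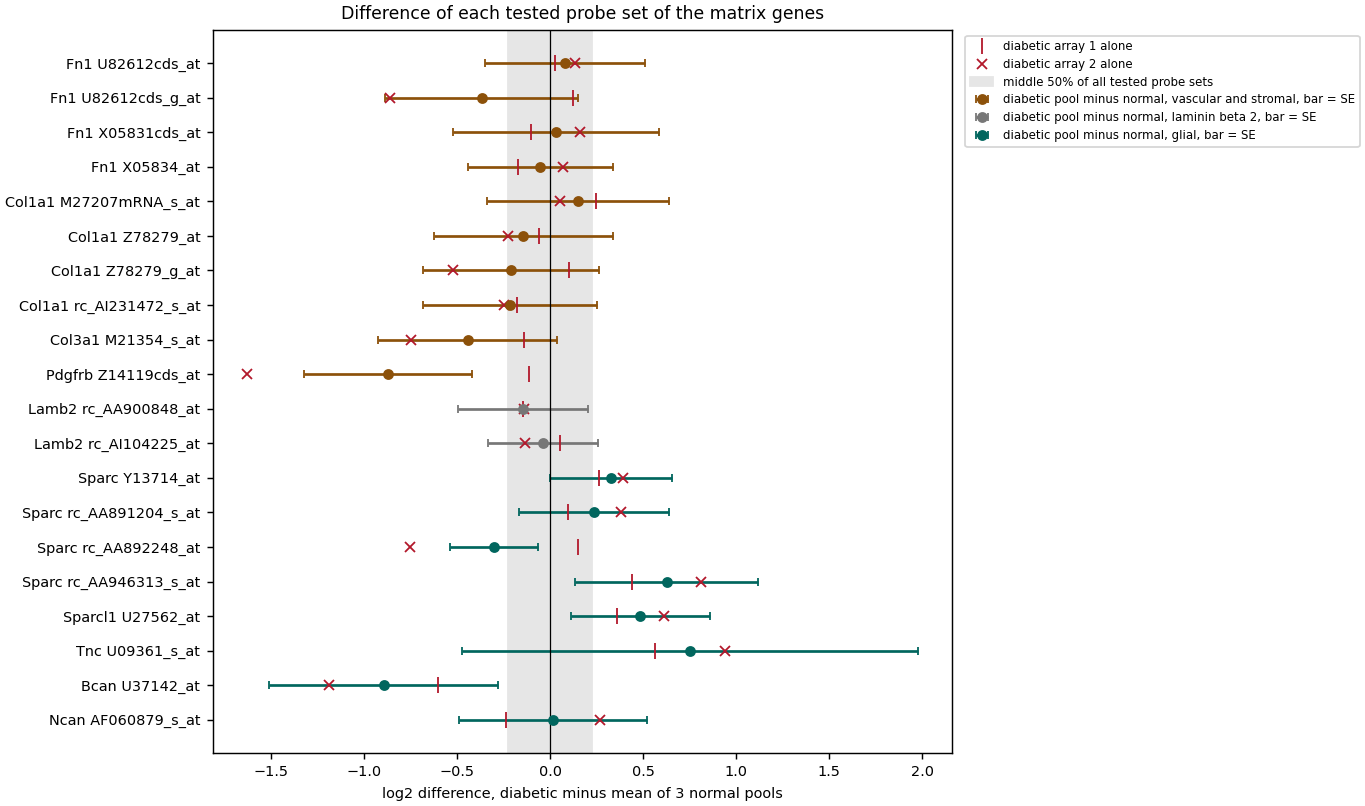
Log2 difference (diabetic pool minus mean of 3 normal pools) of the 20 tested probe sets, with SE bars; the tick and cross show diabetic arrays 1 and 2 alone, and the grey band spans the middle 50% of all tested probe sets, from -0.23 to 0.22. The Pdgfrb arrays lie far apart, and the Tnc bar reaches from below 0 to near 2.

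Set side by side, the median log2 difference was -0.29 over the 4 vascular genes and 0.02 over the 5 glial genes, with the brightest probe set standing for each gene. The glial genes ran from -0.90 for Bcan to 0.75 for Tnc, and their median was the value of Ncan, which lay near the floor. Sparc entered by its brightest probe set, at -0.30, whereas its mean over 4 tested probe sets was 0.22. Leaving out normal array 3 gave a glial median of -0.16, and leaving out diabetic array 1 gave 0.26. Between the same-day arrays the medians were -0.41 for the vascular and 0.60 for the glial genes. No difference between the medians was tested.

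The wider matrix lists gave 0 genes past limma's adjusted threshold. Of 25 further basement membrane genes, 11 were on the array and 7 were tested, with 1 above and 6 below normal and a median log2 difference of -0.05. Agrn, the heparan sulphate proteoglycan agrin, was the brightest, with 258 and 341 units in diabetic cells, against 356, 343 and 386 units in normal cells, a log2 difference of -0.29 (SE 0.27). Both diabetic arrays lay below every normal array, array 2 only narrowly. This held for 1 of the 7 genes, against 7.01% of all tested probe sets. The laminin chain gene Lamc1 differed by -0.10 (SE 0.35) and the type IV collagen chain gene Col4a5 by 0.10 (SE 0.64). The nidogen gene Nid1 stayed at or under 5.47 units on all arrays.

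Among 31 fibrillar collagens, fibre-associated proteins and collagen-processing enzymes, 17 were tested, with 6 above and 11 below normal and a median log2 difference of -0.22. The brightest, Col2a1, encodes type II collagen, known from cartilage and the vitreous. It had 876 and 1183 units in diabetic cells, against 1747, 1644 and 1927 units in normal cells, and both diabetic arrays lay below all normal arrays. This held for 2 of the 17 genes, against 7.01% of all tested probe sets. The log2 difference of Col2a1 was -0.80 (SE 0.24, limma's unadjusted p = 0.0166) and did not pass after adjustment (limma's adjusted p = 0.9999). It was the only one of the 17 with an unadjusted p under 0.05, against 1.6% of all tested probe sets. It was -0.58 when diabetic array 1 was left out, and -0.30 on the unscaled values, whose median over all tested probe sets was 0.47. P4hb, a subunit of prolyl 4-hydroxylase, differed by 0.26 (SE 0.25) and the lysyl hydroxylase gene Plod2 by -0.26 (SE 0.29).

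Of 29 other neural matrix proteins and proteoglycans, 14 were tested, with 7 above and 7 below normal and a median of -0.08. The syndecan gene Sdc4 differed by 0.44 (SE 0.40) and Cspg5, the neural proteoglycan neuroglycan C, by 0.02 (SE 0.31). Lgals1, encoding the lectin galectin-1, had 237 and 291 units in diabetic cells, against 109, 212 and 128 units in normal cells, so that both diabetic arrays lay above the normal ones. This held for 3 of the 14 genes, against 9.53% of all tested probe sets. The log2 difference of Lgals1 was 0.87 (SE 0.47, limma's unadjusted p = 0.120). The hyaluronan-binding lectican genes Acan and Vcan stayed at or under 6.46 and 37.2 units and were not tested.

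**Figure D4:**
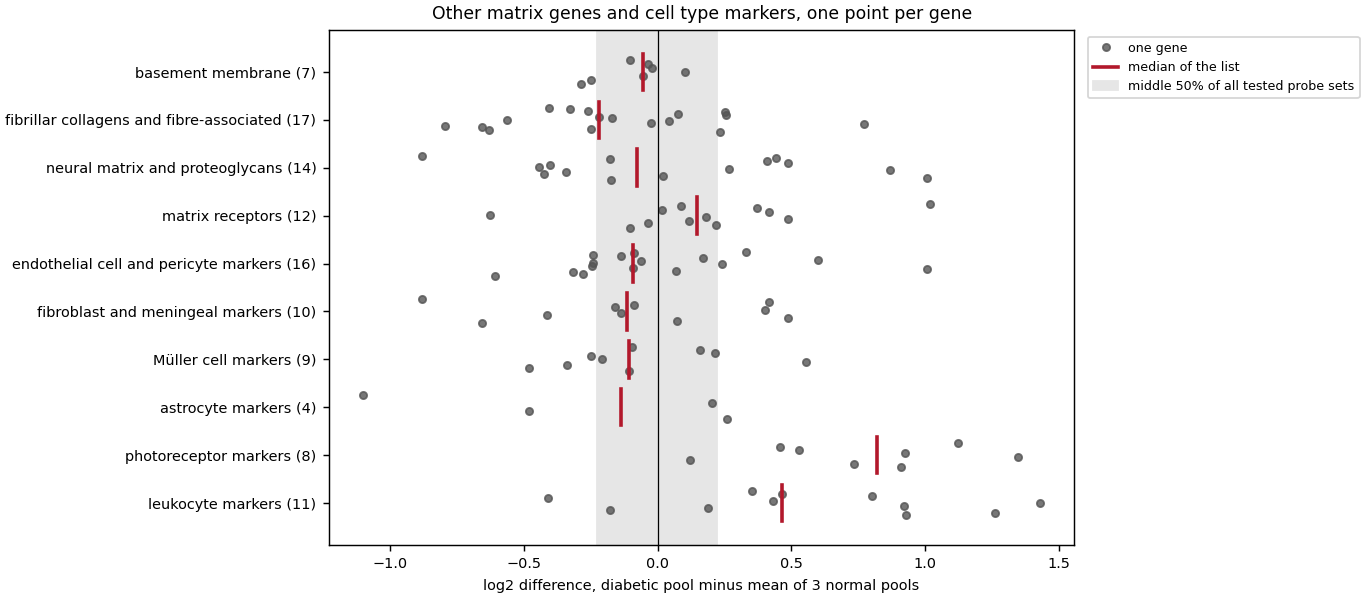
Log2 difference (diabetic pool minus mean of 3 normal pools) of each tested gene in the wider matrix lists and in the marker lists, with the number of genes in brackets, the median as a red bar, and the middle 50% of all tested probe sets in grey. The medians of the matrix lists lie between -0.22 and 0.15, while those of photoreceptor and leukocyte markers lie at 0.82 and 0.47.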

How the data were processed

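Total RNA of Müller cells, per the labels, was measured on Affymetrix rat genome arrays, per the file headers. The deposited values are linear intensity values, 1 per probe set. Their algorithm and scaling: not given in the sources used here. Deposited experiment records, text of other kinds, served only to find shared days and chip lots. Trimmed means (2%) ran from 73.8 to 260 (ratio 3.52), so arrays were quantile normalised, floored at 20 (the higher of 20 and the 20th percentile) and converted to log2. After 59 control probe sets and the dimmest 30% were left out, 6118 remained. Symbols came from the platform annotation, checked through Entrez IDs against RefSeq GRCr8 (0 changed). Probe sets with several symbols or none were not named.

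limma 3.58.1 in R 4.3.3 (lmFit, eBayes with trend, Benjamini-Hochberg over 6118, two-sided) compared 1 diabetic pool with 3 normal pools. Residual degrees of freedom were 2 and prior ones 3.54. The spread is that of the 3 normal pools, and the single diabetic pool was taken to vary alike. The step was tested on simulated data in which all arrays varied independently and no probe set was filtered out. The diabetic arrays, as technical replicates of 1 pool, differ from that setting. The simulation therefore does not check the error rate of the design used here. Alternatives changed the scaling, the floor, the filter, the variance trend and the use of the diabetic arrays as separate samples, left out each array, or kept only same-day arrays or those of low actin ratio. The members and lists were chosen with earlier results of these data known. Named genes were all member probe sets and the 3 brightest genes of each list. Other genes are named for a low signal, for a brighter signal set against it, or as the defining marker of a cell type. They were chosen after their values were seen. Lists count each gene by its brightest tested probe set. Figures were drawn with matplotlib 3.10.9.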

Additional observations from a re-analysis of the deposited data

How the results depend on the processing

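The precision was limited by the number of arrays, by a diabetic group of 1 pool and, for Bcan, Ncan and several dim probe sets, by signals near the floor. No paired analysis was possible because the labels share only replicate number 2 between the groups and the diabetic arrays are 1 pool. The 0 calls among the members held except without the filter on dim probe sets, which called 1 member probe set, M97161_at of Ncan, and 170 probe sets in all; 162 of the 170 were at the floor on all normal arrays and so had no spread there. With the 5 arrays as separate samples 13 probe sets were called and no member. The vascular median was 0.24 unscaled, -0.074 among the 3 arrays of low actin ratio, and -0.48 to -0.13 when single arrays were left out. The glial median was 0.56 unscaled, 0.60 between the same-day arrays, and -0.16 to 0.26 when single arrays were left out. The count of member probe sets with both diabetic arrays above all normal ones was 3 with median scaling, 11 among the 3 arrays of low actin ratio (1 diabetic array) and 1 to 6 when single arrays were left out. The count below was 0 unscaled, 0 with a floor of 40, 0 with the dimmest 50% left out, 4 among the 3 arrays of low actin ratio and 2 to 8 when single arrays were left out. Such separation arises more easily with fewer arrays, as where only 1 diabetic array was kept. The shares over all tested probe sets in these runs are not given. The counts are therefore not read as results about the members. Of the 20 member probe sets 8 kept their sign in every alternative run, as did 13 of the 30 genes named as the 3 brightest of their lists.

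Unscaled, where the median of all tested probe sets was 0.47, the values that changed sign were Fn1 (X05834_at) at 0.47, Col1a1 (rc_AI231472_s_at) at 0.32, Col1a1 (Z78279_at) at 0.40, Col1a1 (Z78279_g_at) at 0.35, Col3a1 (M21354_s_at) at 0.079, Lamb2 (rc_AA900848_at) at 0.38, Lamb2 (rc_AI104225_at) at 0.49, Sparc (rc_AA892248_at) at 0.21, Agrn at 0.23, Lamc1 at 0.43, Plod2 at 0.25, Ddr1 at 0.39, Cd44 at 0.41, Kdr at 0.40, Slc2a1 at 0.37, Pdgfra at 0.35, Apoe at 0.24, Glul at 0.12, Aqp4 at 0.030 and C1qc at 0.34. Relative to that median 18 of these 20, and 6 of the 8 members among them, had the sign of the normalised values. With median scaling the value of Ncan (AF060879_s_at) was -0.028. Between the same-day arrays those that changed sign were Fn1 (X05831cds_at) at -0.048, Fn1 (X05834_at) at 0.20, Col1a1 (Z78279_at) at 0.15, Lamb2 (rc_AA900848_at) at 0.15, Col4a5 at -0.22, Cspg5 at -0.095, Ddr1 at 0.032, Kdr at 0.15, Igf2 at -0.033, Apoe at 0.089, Slc1a2 at 0.53 and C1qc at 0.037. Among the 3 arrays of low actin ratio they were Fn1 (U82612cds_g_at) at 0.32, Col1a1 (Z78279_at) at 0.18, Col1a1 (Z78279_g_at) at 0.34, Lamb2 (rc_AI104225_at) at 0.15, Sparc (rc_AA892248_at) at 0.099, Lamc1 at 0.077, Col4a5 at -0.60, Cspg5 at -0.065, Ddr1 at 0.33, Cd44 at 0.58, Slc2a1 at 0.026, Igf2 at -0.0030 and Thy1 at -0.28. As a mean over its probe sets Sparc (rc_AA892248_at) was 0.22. Leaving out single arrays gave ranges across 0 of -0.18 to 0.071 for Fn1 (X05834_at), -0.32 to 0.092 for Col1a1 (Z78279_at), -0.52 to 0.10 for Col1a1 (Z78279_g_at), -0.13 to 0.056 for Lamb2 (rc_AI104225_at), -0.22 to 0.059 for Lamc1, -0.32 to 0.52 for Col4a5, -0.13 to 0.15 for Cspg5, -0.24 to 0.16 for Ddr1, -0.25 to 0.11 for Kdr, -0.25 to 0.058 for Slc2a1, -0.23 to 0.23 for Fn1 (X05831cds_at), -0.032 to 0.19 for Igf2, -0.16 to 1.503 for Tnc (U09361_s_at), -0.13 to 0.26 for Ncan (AF060879_s_at), -0.45 to 0.16 for Pdgfra, -0.57 to 0.044 for Plod2, -0.27 to 0.060 for Apoe, -2.22 to 0.083 for Slc1a2, -0.84 to 0.13 for Fn1 (U82612cds_g_at), -0.74 to 0.16 for Sparc (rc_AA892248_at), -0.68 to 0.47 for Cd44, -0.055 to 0.90 for Thy1 and -1.13 to 0.17 for Aqp4. The causes were not tested.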

Other observations

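No receptor through which cells bind matrix passed the test. Of 25 such genes, 14 were on the array and 12 were tested, with 9 above and 3 below normal, where 48.8% of all tested probe sets were above, and a median log2 difference of 0.15. Between the same-day arrays 6 were above and 6 below. None passed limma's test at an adjusted or an unadjusted p of 0.05. Itgb1, the integrin beta-1 chain shared by most collagen, laminin and fibronectin receptors, had 370 and 465 units in diabetic cells, against 285, 273 and 385 units in normal cells (log2 difference 0.42, SE 0.32). Ddr1, a receptor kinase activated by collagen, differed by -0.04 (SE 0.32). Cd44, the hyaluronan receptor, had 570 and 257 units in diabetic cells, against 469, 352 and 422 units in normal cells, so that the diabetic arrays lay on opposite sides of the normal range (log2 difference -0.10, SE 0.29).

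Among the stromal markers, Postn, encoding the matricellular protein periostin, had 668 and 577 units in diabetic cells, against 402, 507 and 508 units in normal cells (log2 difference 0.40, SE 0.28), with both diabetic arrays above the normal ones. This held for 1 of the 10 tested genes of the list, against 9.53% of all tested probe sets. Igf2 differed by 0.07 (SE 0.26) and Thy1 by 0.42 (SE 0.40). These 3 are the brightest of the list, of which 4 genes were above and 6 below normal, from -0.88 to 0.49. The 3 brightest Müller cell markers, Clu, Apoe and Glul, differed by 0.56 (SE 0.30), -0.11 (SE 0.26) and -0.21 (SE 0.33). Those of the astrocyte list, S100b, Aqp4 and Slc1a2, differed by 0.20 (SE 0.35), -0.48 (SE 0.39) and -1.10 (SE 0.57), and Aqp4 is on both lists. The Slc1a2 value rests on diabetic array 1, below the floor at 14.9 units, against 104 units on diabetic array 2, and it was 0.083 without diabetic array 1 and 0.53 between the same-day arrays. Aqp4 was 0.17 without diabetic array 2. Of the photoreceptor genes Sag, Prph2 and Pdc the differences were 1.12 (SE 0.59), 0.53 (SE 0.57) and 0.93 (SE 0.56). Leukocyte markers had a median of 0.47 over 11 tested genes, 9 of them above normal, against 48.8% of all tested probe sets. Both diabetic arrays lay above every normal array for 7 of the 11, against 9.53% of all tested probe sets. In limma 1 of the 11 had an unadjusted p under 0.05, against 1.6% of all tested probe sets, and 0 passed after adjustment. The 3 brightest, Ctss, C1qc and Lyz2, differed by 0.43 (SE 0.26), -0.18 (SE 0.32) and 0.47 (SE 0.41).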
